A study of Danio rerio with 24 samples.

Results

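Among the transcripts of the regrowing zebrafish caudal fin, 54 probe sets lost signal within 12 h of amputation and stood above their uncut level at 48 h. They were chosen from the measured values: of the 10140 probe sets with a log2 signal of at least 4 on at least 3 of 24 arrays, a member had a 12 h mean at least 1 log2 unit below its 0 h mean and a 48 h mean at least 1 log2 unit above it. Each mean was taken over the 6 arrays of a time, so the choice did not look at the arms separately, and the changes from 0 h given below describe the choice and were not tested. Of the 54, 38 carry 1 gene symbol and stand for 37 genes, since msx3 has 2 probe sets among them. A further probe set matches several genes and 15 have no gene in the annotation used here, so these 16 are described without a gene name.

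The series measured total RNA of the caudal fin of wild-type Danio rerio on Affymetrix zebrafish arrays, 3 arrays for each of 8 groups. Fins of 2 arms, control and metabolic memory fish, were taken 0, 12, 24 and 48 h after amputation. Memory fish had received repeated injections of streptozocin, a beta cell toxin that raises blood glucose, at 350 mg/kg, and then spent 60 days off the drug. The treatment protocol gives the control fish citrate buffer, while another description calls them untreated. Age and sex of the fish are not given in the sources used here, nor is the origin of each group's 3 samples from separate or shared fish, so p-values measure the spread between these samples, which may be technical. In such bulk tissue, fewer cells of a type and less RNA per cell cannot be told apart.

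After amputation, epidermis closes the fin stump, and mesenchymal cells and osteoblasts behind the wound give rise to a proliferating mass, the blastema. New fin rays are then laid down by osteoblasts, which secrete collagens and mineral-binding proteins, while actinodins build the actinotrichia, the rod-like fibrils that stiffen the growing fin edge. Homeobox factors of the Dlx, Msx and Hox families mark fin and skeletal mesenchyme, and Cdk1 drives cells into mitosis.

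Within a group, array correlations were 0.978 to 0.996. The 18 hybridisation control probe sets averaged log2 10.12 to 10.18 in the groups of 0 and 12 h and 9.69 to 9.82 in those of 24 and 48 h, so a drift of that size cannot be told apart from time at the 2 late points. Sums of cell type markers take all probe sets of the listed genes on the array, dim ones included, while calls cover the tested genes. Osteoblast markers, with 7 of 11 listed genes on the array and 6 tested, summed to a linear signal of 8069 to 10123 per array at 0 h, 575 to 818 at 12 h, 1143 to 1564 at 24 h and 12069 to 15811 at 48 h. Of the 6, which include the member ifitm5, 5 were called lower at 12 h, and 3 were higher and 2 lower at 48 h than at 0 h. Pigment cell markers (5 on the array, 3 tested) summed to 183 to 268 at 0 h, 60.3 to 92.8 at 12 h, 87.4 to 167 at 24 h and 252 to 339 at 48 h. Of the 3 tested, 1 was called both lower at 12 h and higher at 48 h than at 0 h. Macrophage markers (7 tested) summed to 20495 to 23436 at 0 h, 6405 to 8212 at 12 h and 9969 to 11949 at 48 h. Most of the 7 moved against that sum, which the brightest genes weigh most. At 12 h, 4 were called higher and 2 lower than at 0 h, with a median change of 0.45. At 48 h, 6 were higher and 1 lower, with a median of 0.65. Nerve and Schwann cell markers (4 on the array, 3 tested) summed to 303 to 402 at 0 h, 33.9 to 46.1 at 12 h and 28.7 to 31.8 at 48 h. The part of these cell types in the members' course was not tested. Of 20 muscle genes only 1 passed the filter.

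The fall at 12 h had a median of -1.59 and ran from -6.44 to -1.02 on the log2 scale. At 24 h the members stood between -6.53 and 1.60 from their 0 h mean, with a median of -0.34. By 48 h they were 1.02 to 5.47 above it, with a median of 1.60. The whole climb from 12 to 48 h was 2.19 to 10.52, with a median of 3.19. Over all 10140 probe sets the median change from 0 h was 0.03 at 12 h, 0.04 at 24 h and 0.05 at 48 h.

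The combination was uncommon in the series. Of all tested probe sets 14.8%, or 1497, were at least 1 log2 unit down at 12 h, and 16%, or 1625, were at least 1 up at 48 h. Of the 1497 that fell, 874 were still down by 1 or more at 48 h and 569 lay between the thresholds, which leaves the 54 members, 3.61% of those that fell and 3.32% of those that rose. The mirror image, up at 12 h and down at 48 h, was met by 3 probe sets. In 48 members all 6 arrays of 12 h lay below all 6 of 0 h, against a background of 22.2% of tested probe sets, and in all 54 the 6 arrays of 48 h lay above those of 0 h, against 31.4%. Both shares follow from the choice of members, so nothing is read from them.

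Values near the thresholds were close on both sides. Just inside the 12 h threshold lay clu at -1.02 and probe sets without a gene at -1.02 and -1.03. Just outside lay a probe set without a gene at -0.99, inka1b at -0.99 and a further nusap1 probe set at -0.98. At the 48 h threshold cpn1 at 1.02, cpe at 1.07 and mbd3b at 1.08 were inside, and dlx2a at 1.00, rounded up from just under the threshold, aspn at 0.99 and cenpe at 0.98 were outside.

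**Figure D1:**
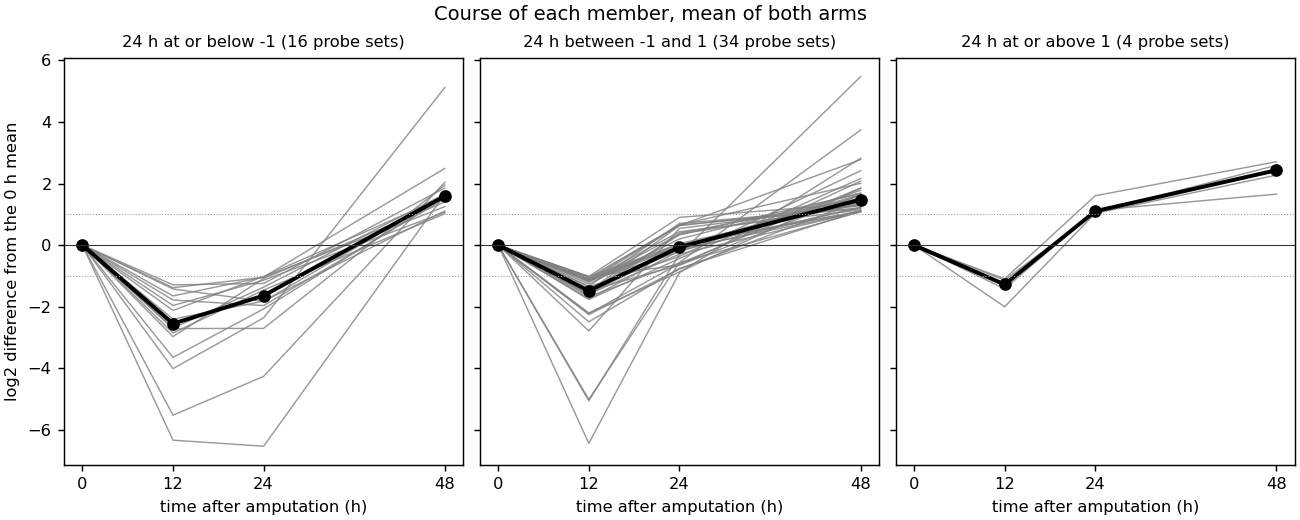
Each grey line is 1 of the 54 probe sets: its log2 difference from its own 0 h mean (mean of 6 arrays, both arms) against hours after amputation, split by where it stood at 24 h. Black points and lines are the medians of each panel and dotted lines the thresholds of -1 and 1. In 16 probe sets the dip was still present at 24 h, 34 were between the thresholds and 4 had already passed 1.

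The deepest dips were those of and1, ifitm5, ecrg4a and enam, and the largest overshoots those of enam, and2, a probe set without a gene and and1. The signal of and1, which encodes an actinodin, was 10.06 to 10.62 (median 10.18) over the 6 arrays of 0 h, 3.50 to 4.37 (median 3.69) at 12 h, 9.0 to 10.09 (median 9.24) at 24 h and 12.85 to 13.27 (median 13.08) at 48 h. It fell 86.6-fold and ended 7.07-fold above the uncut fin, with no overlap between 12 h and any other time. The second actinodin, and2, went from 6.64 to 7.77 (median 7.23) at 0 h down to 2.82 to 3.58 (median 3.12), and was still at 4.45 to 5.27 (median 4.81) at 24 h. Its 48 h arrays lay at 12.20 to 12.41 (median 12.30), 34.7-fold above 0 h. The paired genes thus ended high together, but at 24 h and1 was 0.90 and and2 2.36 below its uncut level.

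The gene enam encodes enamelin, a secreted calcium-binding phosphoprotein that in mammals belongs to the enamel matrix. Its signal was 6.71 to 8.21 (median 7.97) at 0 h, 2.18 to 3.05 (median 2.47) at 12 h and 6.05 to 7.98 (median 7.54) at 24 h. At 48 h it reached 12.95 to 13.60 (median 13.03), 44.4-fold above 0 h and 1473-fold above 12 h, the widest swing of the 54. Unlike it, ifitm5, which encodes a membrane protein of osteoblasts, was as dim at 24 h as at 12 h. Its arrays lay at 9.19 to 9.54 (median 9.34) at 0 h, 2.34 to 3.80 (median 3.03) at 12 h, 2.18 to 3.69 (median 2.66) at 24 h and 10.64 to 11.30 (median 11.03) at 48 h. The ranges of 12 and 24 h overlapped, and the whole rise of 8.18 log2 units came after 24 h.

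In 20 of the 54 the 12 h mean was under log2 4, the value used as the filter, and in 9 all 6 arrays were. The arrays give no detection calls here, so the folds at 12 h of and2, enam and ifitm5, whose 6 arrays all lay under log2 4, and of and1, whose mean was 3.80, are differences from a signal at the dim end of the array.

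**Figure D2:**
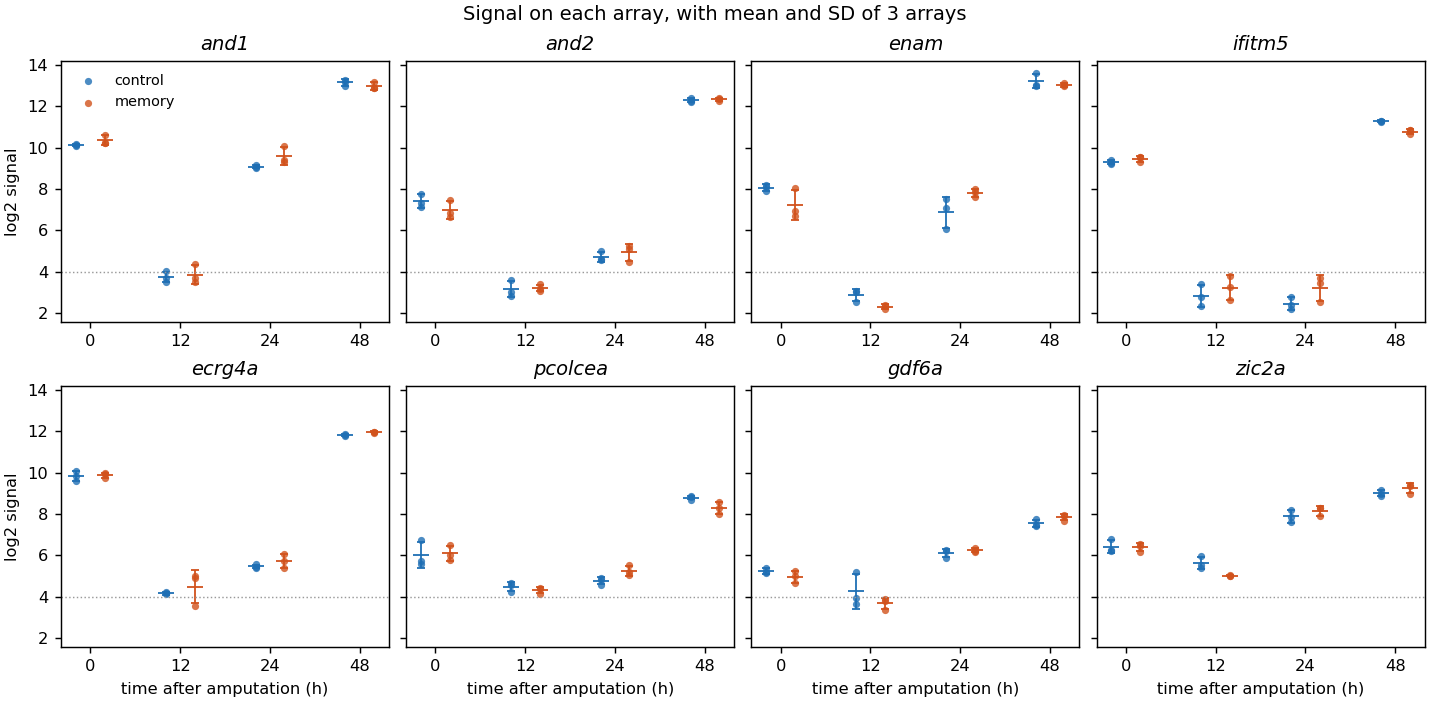
The log2 signal of 8 member genes on every array against hours after amputation, with points for single arrays, bars for the mean and SD of 3 arrays, blue for control and orange for memory fins, and a dotted line at the filter value of log2 4. At 12 h and1, and2, enam and ifitm5 sit near or under that line in both arms, and at 48 h they lie at log2 10.64 to 13.60, while gdf6a and zic2a are above their 0 h level already at 24 h.

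Further members encode proteins that are secreted or build the matrix. The transcript of ecrg4a, the precursor of a secreted peptide in mammals, fell from 9.59 to 10.05 (median 9.88) to 3.56 to 5.01 (median 4.2) at 12 h. It had regained little at 24 h, at 5.36 to 6.05 (median 5.50), and stood at 11.78 to 11.98 (median 11.90) at 48 h. For pcolcea, which encodes an enhancer of procollagen cleavage, the ranges were 5.58 to 6.74 (median 5.88), 4.14 to 4.68 (median 4.39), 4.59 to 5.53 (median 4.99) and 8.02 to 8.84 (median 8.63) in order of time, so its overshoot of 2.49 was larger than its dip of -1.65. The signal of postnb, which encodes periostin, was 12.23 to 12.42 at 0 h, 10.13 to 11.39 at 12 h, 11.97 to 12.18 at 24 h and 13.34 to 13.54 at 48 h. Its 12 h arrays were clear of all the others, and at 24 h every array was still under every array of 0 h.

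Col11a1a, a chain of a fibrillar collagen, dipped to -2.25 and overshot by 1.44, thbs3a, a thrombospondin, by -2.40 and 1.11, and efemp2b, which encodes a fibulin of elastic fibres in mammals, by -2.70 and 1.66. For c1qtnf5, a secreted protein of the C1q family, the dip of -1.15 was small and the overshoot of 2.78 large. The same held for clu, which encodes the extracellular chaperone clusterin, at -1.02 and 2.08. Lama5, a laminin chain of basement membranes, changed by -1.49 and 1.68, and fstl1b, a secreted follistatin-like protein, by -1.15 and 1.1. All of these are log2 differences from 0 h, at 12 and 48 h. At 24 h these genes were spread from -1.82 in thbs3a to 0.64 in c1qtnf5.

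Carboxypeptidases formed a group of 3: cpn1, which encodes the catalytic subunit of a plasma carboxypeptidase, cpe, an enzyme of prohormone processing, and cpxm1a, a relative of both. The signal of cpn1 fell from 8.34 to 8.64 (median 8.51) to 5.21 to 6.08 (median 5.71), was 6.69 to 7.32 (median 7.02) at 24 h and reached 9.44 to 9.66 (median 9.50). That was a dip of -2.85 and an overshoot of 1.02, the smallest of all. The values were -1.96 and 1.07 in cpe and -2.22 and 1.85 in cpxm1a.

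Transcription factors of patterning made up 6 probe sets of 5 genes: dlx5a, msx3, hoxa9b, twist3 and zic2a. The homeobox gene dlx5a lay at 8.36 to 8.60 (median 8.56) at 0 h, 4.76 to 8.01 (median 5.39) at 12 h, 7.99 to 9.85 (median 9.24) at 24 h and 9.06 to 10.78 (median 9.69) at 48 h. Its wide 12 h range comes from 1 control array at 8.01, while the other 5 were at 5.97 or less. Twist3, a basic helix-loop-helix factor, moved from 5.51 to 6.06 (median 5.68) to 3.23 to 4.58 (median 3.95) and then to 4.92 to 5.62 (median 5.20) and 7.61 to 8.19 (median 7.86). Its 12 and 24 h arrays did not overlap, and neither did those of 24 and 48 h.

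Both msx3 probe sets, for a homeobox factor, met the rule. One was the brighter, with a 0 h mean of 8.71, and went to -1.62 and then to 1.52. The other, with a 0 h mean of 6.02, went to -1.09 and 2.01, and at 24 h they stood 0.39 and 0.66 above 0 h. Hoxa9b was the dimmest of the group, with 3.93 to 4.54 at 0 h and 2.64 to 3.53 at 12 h, and its arrays of 48 h lay at 5.56 to 6.54. Zic2a, a zinc finger factor, was ahead of the rest. It fell from 6.18 to 6.80 (median 6.36) to 4.98 to 5.95 (median 5.20) and by 24 h was at 7.59 to 8.29 (median 8.03), above every array of 0 h, on its way to 8.89 to 9.38 (median 9.06). The chromatin gene mbd3b, whose mammalian counterpart encodes a subunit of the NuRD complex, changed by -1.68 and rose to 1.08.

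Signals were few. Gdf6a, a ligand of the Bmp family, lay at 4.66 to 5.38 (median 5.18) at 0 h, 3.37 to 5.21 (median 3.83) at 12 h, 5.89 to 6.34 (median 6.20) at 24 h and 7.42 to 7.93 (median 7.71) at 48 h, so the first 2 times overlapped and the last 2 stood apart from them. Pdgfaa, a platelet-derived growth factor chain, dipped to -1.38, was still -1.04 at 24 h and reached 1.25. Tmeff1b, a membrane protein with follistatin-like and EGF-like domains, gave -1.11 and 1.60. Mitosis was represented by cdk1, at 7.67 to 8.59 (median 8.20), 6.17 to 7.52 (median 6.83), 8.71 to 9.04 (median 8.88) and 9.33 to 9.47 (median 9.37), and by nusap1, a spindle-associated protein, at -1.15 and 1.14. In cdk1 the 24 h arrays were all above those of 0 h.

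Other named members were hsd11b2, which inactivates cortisol (-2.97 at 12 h and 1.40 at 48 h), acsf2, an acyl-CoA synthetase (-1.55 and 1.08), and ptgr1.1, a prostaglandin reductase (-1.26 and 1.69). The engulfment adaptor gulp1a gave -2.49 and 1.12. Of the cytoskeletal and LIM domain genes, the calponin cnn3b gave -1.17 and 1.21, and crip2 -1.78 and 1.51. Ntd5 dipped to -3.64 and overshot by 1.57. The clone identifiers si:ch211-133n4.4 and si:dkey-6i22.5 gave -1.58 and 1.64, and -1.06 and 1.19.

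The 16 probe sets without a single gene showed the same spread of sizes. One of them was as wide in its swing as the leading genes, at 8.37 to 9.22 (median 8.74), 3.04 to 4.48 (median 3.87), 8.0 to 8.43 (median 8.27) and 12.31 to 12.87 (median 12.45), a dip of -5.01 and an overshoot of 3.74. Next came dips of -2.71 and -2.20. The rest had dips of -2.12 to -1.02 and overshoots of 1.1 to 2.42.

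Members separated most at 24 h. Of the 54, 36 were below and 18 above their 0 h mean at that time, 16 were still down by 1 or more (14% of all tested probe sets) and 4 were up by 1 or more (14.9%). Those 4 were zic2a at 1.60, gdf6a at 1.07 and 2 without a gene at 1.13 and 1.03. The 16 late ones were 4 without a gene name and ifitm5, ecrg4a, and2, efemp2b, ntd5, crip2, thbs3a, cpn1, cpe, hsd11b2, pdgfaa and pcolcea. Only ifitm5, crip2 and a probe set without a gene were lower at 24 than at 12 h, with changes of -0.40 to -0.18. A step of at least 1 from 12 to 24 h was made by 41 members (2.72% of all tested probe sets) and from 24 to 48 h by 46 (4.45%), and in 20 the first step was the larger. These steps share the values that chose the members and carry no test.

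Other genes of the same roles were followed through lists drawn up for this tissue, with 1 probe set per gene and limma calls at an adjusted p under 0.05, and the lists were chosen with earlier results of these data known. Over all tested probe sets 37.1% were called lower and 39.5% higher at 12 h than at 0 h, and 41.6% were called higher and 37.3% lower at 48 h. Of 43 fin fold and bone matrix genes, 5 of them members, 28 were lower and 13 higher at 12 h, and 31 were higher and 8 lower at 48 h. Of 37 patterning factors, also with 5 members, 25 were lower and 7 higher at 12 h, and 25 were higher and 6 lower at 48 h. Median changes at 12 and 48 h were -0.99 and 0.77 for the patterning factors. The 48 h comparison shares its 0 h arrays with the 12 h comparison.

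Some listed genes that are no members fell as deeply and did not pass the 48 h threshold. Col10a1b and col10a1a, collagen X chains of bone-forming cells, changed by -5.01 ± 0.21 (SE; limma adjusted p = 9.34e-15) and -4.70 ± 0.14 (2.44e-17) and were at -0.65 and 0.51 at 48 h. Loxa, an enzyme that crosslinks collagen, changed by -4.65 ± 0.22 (4.02e-14) and stood at 0.69. Serpinh1b, the collagen chaperone, moved the other way, 4.56 ± 0.26 higher at 12 h (1.36e-12) and 6.21 higher at 48 h. Among patterning factors, dlx6a changed by -2.84 ± 0.19 (2.08e-11) and ended at 0.53, and foxd3 by -3.22 ± 0.09 (9.75e-18), whereas sox11a and sox9b were 4.83 ± 0.18 (7.44e-16) and 3.70 ± 0.23 (3.78e-12) higher at 12 h.

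Cell cycle lists parted at 12 h. Of 66 mitosis genes, 43 were lower and 10 higher at 12 h, and 60 were higher and the other 6 not called at 48 h, with median changes of -0.44 and 0.97. Of 52 DNA replication genes, 37 were higher and 5 lower at 12 h and 47 higher at 48 h, with medians of 0.61 and 0.92. The mitosis medians were thus under the thresholds of membership, and cdk1 was the member among them besides nusap1, whose brightest probe set is not a member. Of 72 signalling genes, 44 were lower and 17 higher at 12 h, and 32 were lower and 27 higher at 48 h. Of 41 epidermal genes, 18 were higher and 17 lower at 12 h, and of 35 genes of axon growth and the cytoskeleton, 19 were higher and 10 lower.

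**Figure D3:**
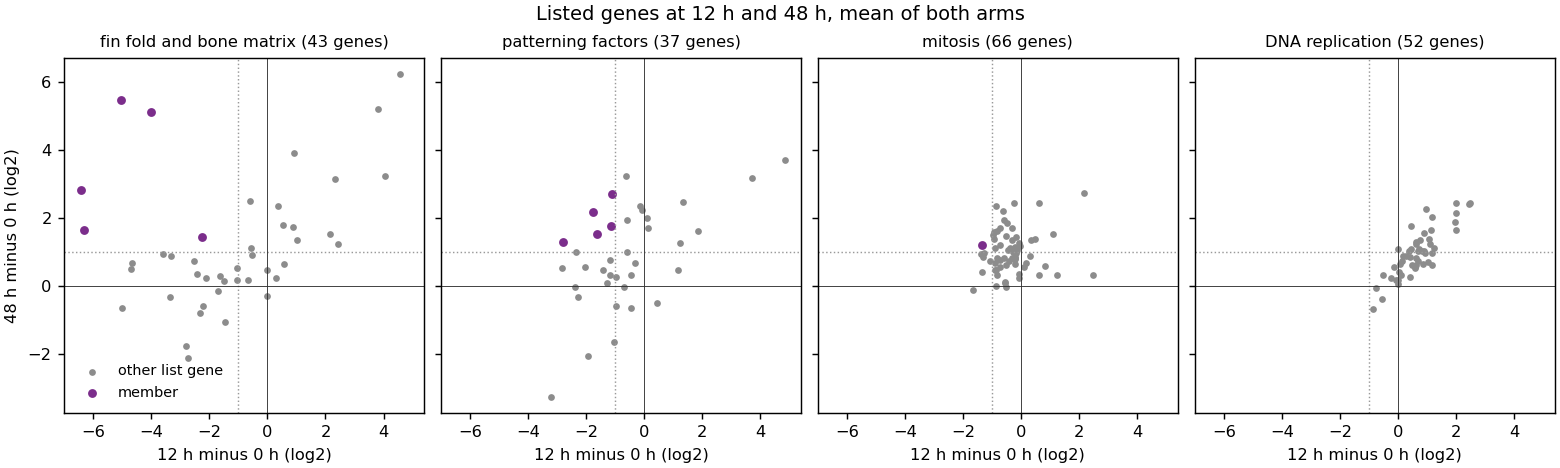
Each point is a gene of a list, its log2 difference from 0 h at 12 h on the horizontal and at 48 h on the vertical axis (mean of both arms, 6 arrays per time), with members in purple and thresholds dotted. Bone matrix and patterning genes reach far to the left, mitosis genes form a compact cloud left of 0 and above it, and replication genes lie mostly to the right of 0.

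Within the control fins alone, 37 members fell by 1 or more at 12 h, 48 rose by 1 or more at 48 h and 32 met the whole rule. In the memory fins alone the counts were 53, 49 and 48, and 28 members met the rule in each arm. Applied to all probe sets, the rule found 39 in control fins, of which 32 are members, and 85 in memory fins, of which 48 are members. The counts of the arms lay further apart at 12 h than at 48 h.

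**Figure D4:**
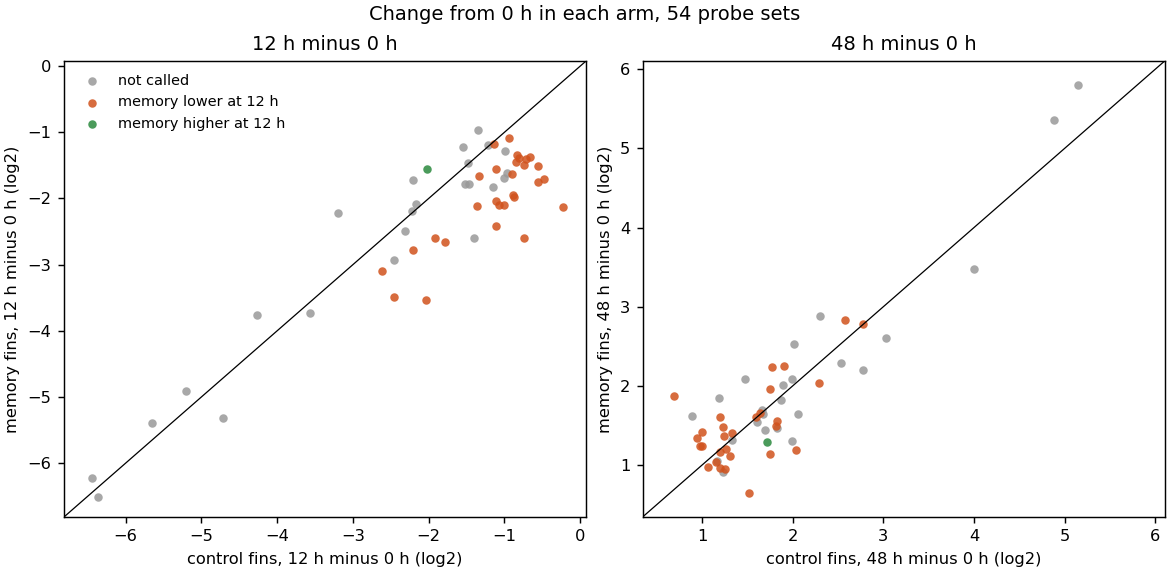
Each point is 1 of the 54 probe sets, with the change from 0 h in control fins on the horizontal and in memory fins on the vertical axis (log2, means of 3 arrays per group), at 12 h on the left and 48 h on the right. The line marks equal change, and colours mark limma calls between the arms at 12 h: most orange points (memory lower) lie under the line on the left, and points lie on both sides of it on the right.

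The arms were compared at each time. The rule used only their mean, but a fall in memory fins alone can bring a probe set in. By 12 h, 53 members had fallen by 1 or more in memory fins and 37 in control fins. The counts at 12 h thus depend in part on the choice of members. At 12 h, 30 of the 54 were called between the arms (adjusted p under 0.05), 29 lower and 1 higher in memory fins. Over all tested probe sets 36.2% were called, 20.7% lower and 15.5% higher. The median difference, memory minus control, was -0.59 over the members and -0.02 over all, and 40 of the 54 were negative. Over the 54, all memory arrays lay below all control arrays in 28 called lower and in 1 not called. This held for 22.7% of all tested probe sets. The separation and the calls come from the same arrays, so the one adds nothing to the other.

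The calponin cnn3b gave the clearest case, though it met the rule only through its fall in memory fins. Its control arrays of 12 h read 8.4, 8.36 and 8.43 and its memory arrays 6.66, 6.61 and 6.49. The arms were far apart there, with a difference of -1.81 ± 0.09 (SE; adjusted p = 3.11e-11), and control fins had hardly moved from their 0 h mean of 8.62. Mbd3b read 5.96, 5.25 and 5.86 in control and 4.22, 3.43 and 3.91 in memory fins, a difference of -1.83 ± 0.19 (6.26e-07). Both arms of mbd3b were lower than at 0 h, the memory arm by more. At 12 h control fins had changed by -0.22 in cnn3b and -0.75 in mbd3b, so neither met the dip there.

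Hsd11b2, the cortisol-inactivating enzyme, read 5.57, 6.26 and 6.54 against 4.80, 4.46 and 4.42, a difference of -1.57 ± 0.28 (adjusted p = 0.000182). Its 0 h means were already 8.58 in control and 8.04 in memory fins, and its step from 0 to 12 h was not called between the arms. C1qtnf5 read 8.99, 8.93 and 9.44 against 7.90, 7.49 and 7.94, or -1.34 ± 0.14 (7.03e-07). In the transcription factor twist3 the control arrays were at 4.47, 4.57 and 4.58 and the memory arrays at 3.40, 3.23 and 3.43, or -1.19 ± 0.16 (7.51e-06). No array of one arm reached into the other in any of the 3. Periostin's postnb read 11.39, 11.15 and 11.27 against 10.42, 10.13 and 10.20, or -1.02 ± 0.09 (5.81e-08). With a probe set without a gene at -1.07, these 7 kept their call under all alternatives tried. Like cnn3b and mbd3b, c1qtnf5 (-0.56) and that probe set (-0.55) did not fall by 1 in control fins at 12 h. Hsd11b2, twist3 and postnb did.

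Dlx5a depended on 1 array for its size. Its control arrays read 8.01, 5.97 and 5.64 and its memory arrays 4.79, 4.76 and 5.15, a difference of -1.64 ± 0.41 (adjusted p = 0.00399) that became -0.90 (0.0234) without control replicate 1. The call was lost in a fit on only the groups compared (0.0855). The same control array was the highest of its group in the brighter msx3 probe set, at 8.28 against 6.61 and 7.19, in gdf6a, at 5.21 against 3.63 and 3.92, and in a probe set without a gene, at 6.25 against 5.01 and 3.65. None of these 3 was called, with differences of -0.55, -0.58 and -1.16. The dimmer msx3 probe set was, at -0.82 ± 0.20 (0.00313).

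Other members called lower were cpxm1a at -0.96, si:ch211-133n4.4 at -0.92, gulp1a at -0.90, cdk1 at -0.83, acsf2 at -0.83, ptgr1.1 at -0.76, tmeff1b at -0.68 and clu at -0.68, of which gulp1a (adjusted p = 0.0624) and clu (0.0566) lost the call in a fit on only the groups compared. In control and memory fins the 0 h means were already 8.61 and 8.28 for gulp1a and 8.36 and 7.98 for cdk1. The step from 0 to 12 h was called for neither gene. For 6 named members the call was lost without 1 array. It was lost for col11a1a (-0.57; -0.35 without control 12 h replicate 3 and -0.53 without memory 12 h replicate 3) and for zic2a (-0.61; -0.45 without control 12 h replicate 1). It was lost for cpn1 (-0.40; -0.29 to -0.38 without control replicate 1 or memory replicate 2 or 3 of 12 h) and for fstl1b (-0.60; -0.43 to -0.55 without the same arrays). Nusap1 (-0.55) came to -0.40 to -0.53 without control replicate 3 or memory replicate 1 or 3 of 12 h. Its dip was alike in the arms, -1.13 in control and -1.18 in memory fins, from 0 h means of 5.56 and 5.05. The clone si:dkey-6i22.5 (-0.75) came to -0.44 without control 12 h replicate 3 and lost its call without 13 other arrays too.

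Crip2, which encodes a LIM domain protein, was the member higher in memory fins. Its control arrays read 7.19, 6.97 and 7.20 and its memory arrays 7.53, 7.77 and 7.67, a difference of 0.54 ± 0.12 (adjusted p = 0.00109), with all memory arrays above all control arrays, as in 20.1% of tested probe sets. The members with the deepest dips among the named genes were not called at 12 h: the difference was 0.10 ± 0.20 (0.736) for and1, 0.06 ± 0.23 (0.858) for and2, 0.39 ± 0.28 (0.310) for ifitm5, 0.32 ± 0.24 (0.337) for ecrg4a and -0.54 ± 0.31 (0.179) for enam. Of the 20 members with a 12 h mean under log2 4, 6 were called lower, and of the 34 brighter ones, 23, beside 20.7% of all tested probe sets. All tested probe sets were not split by brightness, and both counts depend in part on the choice of members.

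**Figure D5:**
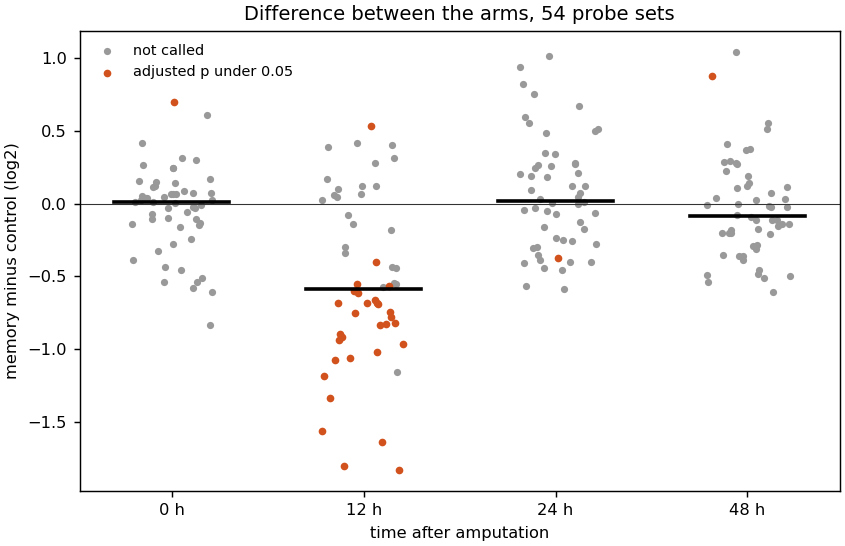
The difference between the arms, memory minus control on the log2 scale, for each of the 54 probe sets at 4 times, with called ones (limma adjusted p under 0.05) in orange and medians as black bars. The cloud sits below 0 at 12 h, with a median of -0.59, and is centred near 0 at 0, 24 and 48 h.

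The share called lower at 12 h has to be read with the choice of members in view. Because the rule averages the arms, a probe set that fell mostly in memory fins can meet it. Of the 17 members that did not fall by 1 in control fins alone, 15 (88.2%) were called lower, and of the 37 that did, 14 (37.8%) were, a split that shares its control arrays with the test. Among the 39 probe sets that meet the rule in control fins alone, 12 (30.8%) were called lower. Of the 1496 probe sets that fell by 1 or more at 12 h in control fins alone, whatever their 48 h value, 20.9% were called lower and 15.5% higher. Both sets were chosen on control arrays of 12 h that the test also uses. Low values there raise memory minus control, so these shares are no unbiased baseline. By the mean of both arms, the share called lower was 30.5% in the other probe sets that fell by 1 at 12 h and 29.0% in the others that rose by 1 at 48 h.

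Array scaling moves these figures. With each array centred on its median, the median difference of all tested probe sets between the arms at 12 h went from -0.02 to 0.10 and the higher share of all calls from 42.8% to 60%, and 27 members were called, 25 of them lower. In the same groups the neutrophil markers, all 6 listed genes on the array tested, summed to 1125 to 1448 in memory and 788 to 959 in control fins, with 2 called higher, srgn and ncf1, while mpx and lyz, their defining enzymes, were not. Basal epidermis markers summed to 19134 to 19878 against 17975 to 18596, with 3 of 5 called higher and 1 lower. Osteoblast markers summed to 575 to 818 against 672 to 739, with 1 of 6 called lower. Before amputation the neutrophil sums were already 1324 to 1803 in memory and 1075 to 1376 in control fins, with 2 of 6 called higher. In the step from 0 to 12 h, 0 neutrophil markers were called higher and 1 lower in memory fins. The part of these cell types in the arm difference was not tested.

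Genes around the members shared the arm difference in part. At 12 h, 46 of the 66 mitosis genes and 36 of the 52 replication genes were lower in memory fins, beside 20.7% of all tested probe sets lower and 15.5% higher, and the other 20 and 16 were not called. The lists differed before amputation. Median differences at 0 and 12 h were -0.31 and -0.66 for mitosis genes, and 0.18 and -0.61 for replication genes. The step from 0 to 12 h was lower in memory fins in 16 of 66 mitosis and 35 of 52 replication genes, beside 14.4% of all tested probe sets. In the comparison at 12 h, 17 of 43 matrix genes were lower and 4 higher in memory fins. Of 37 patterning factors, 11 were lower and 3 higher there. Epidermal genes ran the other way at 12 h, with 16 of 41 higher and 3 lower. By the step from 0 to 12 h, 14 matrix genes were lower and 4 higher in memory fins. The step was lower in 1 patterning factor and higher in 1, and lower in 3 epidermal genes and higher in 11.

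The change from one time to the next was compared between the arms as well. From 0 to 12 h, 20 members changed differently, 18 of them falling further in memory fins and 2 less far, beside 23.5% of all tested probe sets, of which 14.4% had a lower and 9.08% a higher difference. Of these members, 4 that fell further and 1 that fell less far had a 12 h mean under log2 4. The count of 20 also depends in part on the choice of members. Of the 17 that did not fall by 1 in control fins alone, 11 (64.7%) fell further in memory fins by this test. Of the 37 that did, 7 (18.9%) were so called, and this split shares its control arrays with the test. The largest difference in this step was that of cnn3b, -1.90 ± 0.12 (adjusted p = 9.12e-09): it changed by -0.22 in control and by -2.12 in memory fins. From 12 to 24 h, 22 differed, with a more positive change in memory fins in 21 and a more negative one in crip2, which changed by 0.24 in control and by -0.60 in memory fins, beside 16.4% of all, of which 9.49% had a higher and 6.88% a lower difference. Both steps use the 12 h arrays, and low memory values at 12 h, which help bring members in, lower the first difference and raise the second. The widest gap from 12 to 24 h was in dlx5a, which rose by 2.0 in control and 4.66 in memory fins, a difference of 2.65 ± 0.59 (0.00461) that kept its call without each array in turn. Its control arrays of 12 h had an SD of 1.29, with replicate 1 far above the others at 8.01. The size of its gap thus leans on that array. The fin gene enam rose by 4.01 in control and 5.49 in memory fins, a difference of 1.48 ± 0.43 (0.0243) that came to 1.07 without control 24 h replicate 2, 1.41 without memory 12 h replicate 2 and 1.39 without memory 24 h replicate 1, with the call lost each time.

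At the other times few members parted. Before amputation 1 of 54 was called, beside 5.52% of all tested probe sets, 3.62% higher in memory fins. This probe set, which matches several genes, read 3.27, 3.62 and 3.59 in control and 4.25, 4.4 and 3.94 in memory fins, a difference of 0.70 ± 0.13 (adjusted p = 0.00347). Its control arrays all lay under log2 4, and the call was lost in a fit on only the groups compared. At 24 h only cnn3b was called (3.38% of all, 1.9% lower in memory fins), at 8.79, 8.86 and 8.70 in control and 8.43, 8.24 and 8.55 in memory fins. That difference of -0.37 ± 0.09 (0.0198) lost its call without control 24 h replicate 1 or 2 or memory 24 h replicate 2, at -0.37, -0.33 and -0.29, and in a fit on only the groups compared (adjusted p = 0.102). At 48 h the dimmer msx3 probe set was called (5.69% of all, 2.75% higher in memory fins), at 7.97, 7.27 and 7.52 in control and 8.28, 8.60 and 8.52 in memory fins. Its 48 h level was higher in memory fins by 0.88 ± 0.20 (0.0141), and the call was lost without control 48 h replicate 2 (0.72) or memory 48 h replicate 2 (0.81) or 3 (0.85). Its 0 h means were already 5.81 in control and 6.23 in memory fins. The brighter msx3 probe set, with 48 h means of 10.02 in control and 10.43 in memory fins, was not called.

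No member was called in limma for the step from 24 to 48 h (9 had an unadjusted p under 0.05; 0.0394% of all were called) or for the change from 0 to 48 h (7 had an unadjusted p under 0.05; 4.38% of all were called). Dlx5a came nearest to a difference at 48 h by size, 1.04 ± 0.41 higher in memory fins (adjusted p = 0.145). Averaged over the 4 times, 18 members were called, 17 lower and 1 higher, beside 32.8% of all, 16.8% lower and 15.9% higher. The average was -0.66 ± 0.14 (adjusted p = 0.00123) for hsd11b2, -0.62 ± 0.10 (0.000103) for mbd3b and -0.55 ± 0.04 (7.30e-08) for cnn3b. The 12 h arrays enter this average, so the count of 18 also depends in part on the choice of members. Control means of mbd3b were 6.44, 5.69, 6.10 and 7.63 in order of time, and memory means 6.46, 3.86, 5.64 and 7.43. For cnn3b they were 8.62, 8.40, 8.78 and 9.93 in control and 8.71, 6.59, 8.41 and 9.82 in memory fins.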

How the data were processed

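RNA of 24 caudal fin samples, 3 in each of 8 groups taken from the labels, was labelled with biotin and hybridised to Affymetrix zebrafish arrays. The authors deposited a log2 signal for each probe set, and the submitters' processing notes name Partek and its GCRMA method. GCRMA subtracts a background modelled on probe sequence and normalises between arrays, and no versions are given in the sources used here. Of 15617 probe sets, 115 array controls and 5362 dim ones were left out and 10140 tested. Symbols came from the platform annotation, updated through the gene number.

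Using limma 3.58.1 (R 4.3.3, eBayes), group means were fitted over all 24 arrays in 1 model, with Benjamini-Hochberg adjustment over all tested probe sets and calls at an adjusted p under 0.05. The method was tested on simulated data. Array number limits precision. Members and gene lists were chosen with earlier results of these data known. Named genes are those with the widest swings, dips or overshoots, on a list, or called between the arms, and up to 4 other genes per list. Alternatives were no filter, a filter at log2 6, eBayes with intensity trend and robust estimation, arrays centred on their median, a second quantile normalisation, the replicate number as a block, an added 2-fold threshold, fits restricted to the groups compared, other thresholds of membership, and leaving out each array. No sequences are shown, since the reference used here holds names only.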

Additional observations from a re-analysis of the deposited data

Results flagged for a closer look

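The change from 0 to 12 h differed between memory and control fins, by the limma test of the difference itself, in 20 members, given here as memory minus control on the log2 scale. Over all tested probe sets 23.5% were called, 14.4% lower and 9.08% higher. The count depends in part on the choice of members, since a fall in memory fins alone can bring a probe set in. Of the 17 members that did not fall by 1 in control fins alone, 11 fell further in memory fins by this test. Among these 11 are cnn3b, mbd3b, c1qtnf5 and the dimmer msx3 probe set. That msx3 probe set had 0 h means of 5.81 in control and 6.23 in memory fins. The brighter msx3 probe set was not called in this step, changing by -1.47 in control and -1.78 in memory fins. A further fall in memory fins was seen for the cytoskeletal cnn3b (-1.90), the chromatin gene mbd3b (-1.86) and the factors twist3 (-1.30) and msx3 (the dimmer probe set, -1.24). Among matrix and secreted proteins it was -1.18 for c1qtnf5, -1.03 for postnb, -0.86 for cpxm1a, -0.72 for clu and -0.69 for col11a1a. Enzymes and others followed with acsf2 at -1.09, ptgr1.1 at -0.72, tmeff1b at -0.75 and si:ch211-133n4.4 at -0.93. Probe sets without a single gene gave -1.09, -0.96, -0.75, -0.66 and -0.51. A smaller fall in memory fins was seen for crip2 (0.46) and for a probe set without a gene (0.98).

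The change from 12 to 24 h differed in 22 members by the same test, beside 16.4% of all tested probe sets, 9.49% higher and 6.88% lower. Since both steps use the 12 h arrays, low memory values at 12 h, which help bring members in, also raise this difference. The change was more positive in memory fins for the factors dlx5a (2.65), msx3 (the same probe set, 1.38), zic2a (0.89) and twist3 (0.80) and for mbd3b (1.37). The size in dlx5a leans on control 12 h replicate 1. Matrix and secreted proteins gave 1.48 for enam, 1.28 for c1qtnf5, 1.17 for clu, 0.90 for postnb, 0.86 for fstl1b, 0.85 for col11a1a and 0.75 for cpn1. For cnn3b it was 1.43, for hsd11b2 1.16 and for si:ch211-133n4.4 0.96. Probe sets without a gene gave 1.98, 1.42, 0.98, 0.89, 0.72 and 0.61. In clu and the probe set at 0.98 this step was -0.21 and -0.90 in control fins and 0.95 and 0.09 in memory fins. Only crip2 had a more negative change in memory fins (-0.83).

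Of these 42 differences, 13 kept their call under all alternatives. Leaving out single arrays ended the call from 0 to 12 h, each time with the same direction, for col11a1a, crip2, tmeff1b, clu, acsf2 and the probe set at 0.98. Their values without such an array were -0.47 (control 12 h replicate 3) for col11a1a, 0.39 (control 12 h replicate 2) for crip2, -0.60 (control 12 h replicate 3) for tmeff1b, -0.58 (memory 12 h replicate 2) for clu and -0.83 (control 0 h replicate 3) for acsf2, and the probe set at 0.98 came to 0.70 (memory 0 h replicate 1). From 12 to 24 h it did so for hsd11b2 (0.88 without control 24 h replicate 3), the probe set at 1.98 (1.34 without control 12 h replicate 1), fstl1b (0.67 without control 24 h replicate 1) and zic2a (0.73 without control 12 h replicate 1). It did so as well for col11a1a (0.63 without control 12 h replicate 3), enam (1.07 without control 24 h replicate 2), the probe set at 1.42 (1.1 without memory 12 h replicate 3) and twist3 (0.65 without control 24 h replicate 3). Other single arrays ended some of these calls too. From 0 to 12 h the call was lost in 24 of 32 alternatives for col11a1a, 15 for crip2, 13 for tmeff1b and 10 for clu. For col11a1a and tmeff1b these included no filter, arrays centred on their median and a second quantile normalisation. From 12 to 24 h the call of hsd11b2, with an adjusted p of 0.0484, was lost in 22 of 32 alternatives.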

How the results depend on the processing

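No called difference between the arms reversed. The number of members was 54 with no filter, 52 with a filter at log2 6 or a second quantile normalisation, 45 with arrays centred on their median and 39 in control arrays alone, but 85 in memory arrays alone, 97 at a threshold of 0.8 and 18 at 1.5, and 49 to 66 without 1 array. At 12 h the members called fell from 30 to 9 with an added 2-fold threshold and ranged over 26 to 33 without 1 array, and the other alternatives gave 21 to 30. Over all 10140 tested probe sets, the calls at 12 h were 1569 higher and 2097 lower. They came to 257 and 369 with the added 2-fold threshold, and to 905 and 1287 in a fit on only the groups compared. For the other comparisons, calls over all tested probe sets were not counted under the alternatives. An added 2-fold threshold left 8 and 10 in the steps from 0 to 12 h and 12 to 24 h, and 0 averaged over times and at 0, 24 and 48 h. At 0 h the count was 0 with a filter at log2 6, 0 in a fit on only the groups compared and 2 with centred arrays. A fit on only the groups compared gave 4 at 48 h and 3 for the step from 0 to 48 h, for which a filter at log2 6 gave 1. Without 1 array the counts were 1 to 5 at 0 h, 0 to 3 at 24 h, 0 to 3 at 48 h, 17 to 21 averaged over times, 14 to 22 and 16 to 24 for the steps from 0 to 12 h and 12 to 24 h, 0 to 1 from 0 to 48 h and 0 to 0 from 24 to 48 h. The cause of these shifts was not tested, beyond fewer arrays in smaller fits. Same-numbered samples of the arms deviated together at correlations of -0.170 to 0.235. The 2 of 12 pairs over 0.1 were both at 12 h, replicate 1 at 0.207 and replicate 3 at 0.235. Whether the numbers pair the samples cannot be told from these values. With the replicate number as a block the counts of members called were 30 at 12 h, 21 and 22 for the first steps and 19 averaged over times, and in the step from 12 to 24 h hsd11b2 lost its call under the block (adjusted p = 0.0572). Signal under log2 4 limits what can be said of the dimmest members at 12 h.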

Other observations

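Several member genes have further probe sets, which moved alike only in part. Another msx3 probe set was dim, with a 0 h mean of log2 3.40, and changed by 0.01 at 12 h and 1.36 at 48 h, so the dip was not seen in it. Of the 2 other nusap1 probe sets, 1 changed by -0.98 and 1.11 and the other by -1.40 and 0.95, each past 1 threshold. The brighter postnb probe set, with a 0 h mean of 13.34, changed by -1.05 and 0.53. The other zic2a probe set was at log2 2.24 to 2.34 at all times and was not tested. These values come from the same arrays and describe how far membership depends on the probe set.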
